A study of Homo sapiens with 4 samples.

Results

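The genes of the proteasome were compared between a drug-resistant breast cancer subline and its parental line. Members were taken by symbol, as every target named PSMA, PSMB, PSMC, PSMD, PSME, PSMF or PSMG followed by a number, with PSMB8 and PSMB9 left out. This gave 46 of the 20809 targets, among them 17 genes of the 20S core, 17 of the 19S cap, 7 assembly chaperones, and 5 for activators and an inhibitor of the core.

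The proteasome is the main protease of the cytosol and nucleus. Its 20S core is a barrel of stacked rings: outer rings of alpha subunits gate the entrance, and inner rings of beta subunits carry the proteolytic sites. The 19S cap binds ubiquitin-tagged proteins, unfolds them with a ring of ATPases and feeds them into the core, while dedicated chaperones help both parts to assemble and leave the finished particle. Interferon induces alternative catalytic subunits (PSMB8, PSMB9 and PSMB10, the immunoproteasome subunits) and the PA28 activator (PSME1 and PSME2), which alter the peptides made for antigen presentation.

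MDA-MB-468 is an established human cell line of basal, triple-negative breast cancer. The group MDA-MB-468/R, 2 libraries, is a resistant subline that was treated with adriamycin (doxorubicin), cytoxan (cyclophosphamide) and taxotere (docetaxel) at rising doses for 6 months and then allowed to recover. The group MDA-MB-468/WT, 2 libraries, is the parental line, labelled wild-type with no treatment, although the protocol text shared by all 4 samples names the 3 drugs. The resistant group is 1 subline, and nothing in the labels tells if the libraries of a group came from separate cultures, so the p-values below rest on a spread between libraries that could be purely technical. Total RNA was counted with the Ion AmpliSeq Transcriptome kit, in which 1 short amplicon stands for each gene, and levels are given as RPM, the reads of a gene scaled to the same total in each library. The groups are called the resistant and the parental line below.

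Depths were 6832500 to 7982000 reads per library, recovered from the deposited values, at which 3 reads correspond to 0.376 to 0.439 RPM. The epithelial genes EPCAM, CDH1, KRT8, KRT18 and KRT19 and the receptor EGFR, which is amplified in this line, had group means of 85.9 to 5692 RPM, and the hormone receptor genes ESR1 and PGR were at most 3.23 RPM in any library. Of markers of other cells, DCN, PTPRC, CD3E and VWF had 0 reads in all 4 libraries. The leukocyte marker CD14 was at 71.5 and 70.5 RPM in the resistant line and at 83.5 and 84.6 RPM in the parental line. The summed level of 5 fibroblast markers, nearly all from COL1A1, was 13.97 and 11.8 RPM in the resistant line against 17.0 and 18.1 RPM in the parental line, and that of 3 endothelial markers, mainly CDH5, was 0 and 0.133 against 2.78 and 2.88 RPM. CDH5 had 0 and 1 reads in the resistant line and 18 and 22 reads in the parental line. Their part in the results was not tested.

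The promoters of the 3 members that passed the test described below are shown first, because the motifs in them are compared across the family. Each sequence is the 250 bases before the RefSeq start of transcription (GRCh38.p14), read 5′ to 3′ on the coding strand, and capitals mark matches to the motifs searched. PSMA1 is taken from chr11:14520387-14520636, PSMB10 from chr16:67936851-67937100 and PSME2 from chr14:24146611-24146860, each on the minus strand and each in the flank upstream of the gene.
PSMA1: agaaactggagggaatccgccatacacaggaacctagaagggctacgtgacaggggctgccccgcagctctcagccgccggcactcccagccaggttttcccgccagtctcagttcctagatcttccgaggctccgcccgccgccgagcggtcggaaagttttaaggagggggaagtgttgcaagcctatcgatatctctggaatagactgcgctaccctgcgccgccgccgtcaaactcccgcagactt
PSMB10: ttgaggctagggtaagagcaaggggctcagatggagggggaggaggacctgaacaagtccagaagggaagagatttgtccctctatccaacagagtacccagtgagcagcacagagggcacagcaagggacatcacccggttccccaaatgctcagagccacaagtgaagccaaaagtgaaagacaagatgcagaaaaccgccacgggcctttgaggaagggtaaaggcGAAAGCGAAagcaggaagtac
PSME2: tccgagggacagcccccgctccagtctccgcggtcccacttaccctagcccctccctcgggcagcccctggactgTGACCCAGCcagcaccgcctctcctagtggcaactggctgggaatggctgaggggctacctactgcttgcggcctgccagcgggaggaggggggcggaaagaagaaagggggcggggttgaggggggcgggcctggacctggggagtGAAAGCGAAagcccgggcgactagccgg
The motifs were TGACNNNGC, the core of the antioxidant response element, CCAAT, the CCAAT box, and GAAANNGAA, a part of the interferon-stimulated response element, on both strands, and no match in these 3 windows overlapped another. PSMB10 and PSME2 both held GAAAGCGAA close to the start, beginning 21 and 28 bases before it, and PSME2 also held TGACCCAGC, beginning 175 bases before it. PSMA1 held none of the 3 motifs. Of the 46 members, 40 had 48 windows in the table. GAAANNGAA stood in 5 of the 48 windows (10.4%) and in 6.88% of all 35116 windows, and the 5 belonged to PSMA4, PSMB4, PSMB10, PSMG4 and PSME2. TGACNNNGC stood in 12 of the 48 (25.0%) and in 10.9% of all windows, and CCAAT in 18 (37.5%) and in 32.0%. By group, TGACNNNGC stood in 2 of 17 windows of 20S genes, 3 of 18 of 19S genes, 4 of 7 of assembly genes and 3 of 6 of activator and inhibitor genes, and GAAANNGAA stood in 0 of the 18 windows of 19S genes. A match is a stretch of letters and not a measured binding site.

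Most proteasome genes differed little between the groups, and the few that passed the test were lower in the resistant line. Of 46 members, 44 had at least 10 reads in 2 or more libraries and were tested with limma across all 12118 such genes, with a call at a Benjamini-Hochberg adjusted p of at most 0.05. Of the 44, 0 were higher, against 5.36% of all genes tested, and 3 were lower (PSMA1, PSMB10 and PSME2), against 10.6% of all genes tested. The other 41 did not pass. At an unadjusted p of at most 0.05, 2 members were higher (PSMB7 and PSMD5), against 12.2% of all genes tested, and 9 were lower, against 19.1%. The 9 were PSMA1, PSMA7, PSMB1, PSMB4, PSMB10, PSMD4, PSMD10, PSME1 and PSME2. With limma-voom on recovered reads 0 members were higher, against 5.41% of all genes tested, and 3 were lower, against 11%. With a further threshold of 2.5-fold, 0 members passed, against 3.26% of all genes tested.

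The calls were also counted with 1 library left out. Without a parental library few genes of any kind passed: 0 members were higher or lower without WT replicate 1, against 0.0908% and 0.429% of all genes tested, and without WT replicate 2, against 0.0743% and 0.396%. When R replicate 1 was left out, 6 were lower (PSMA2, PSMB4, PSMB10, PSMC4, PSMD4 and PSME2), against 10.8% of all genes tested, and 1 was higher, against 5.8%. The higher gene was PSMD8, which encodes a subunit of the cap. When R replicate 2 was left out, 7 were lower (PSMA4, PSMA6, PSMB2, PSMB4, PSMB10, PSMD12 and PSME2), against 9.89% of all genes tested, and 1 was higher, PSMB7, against 6.2%. Of these, PSMA6 and PSMC4 had a log2 fold change of the other sign without the other resistant library (0.05 and 0.02). PSMB10 and PSME2 were the members called both with all libraries and without either resistant one.

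**Figure D1:**
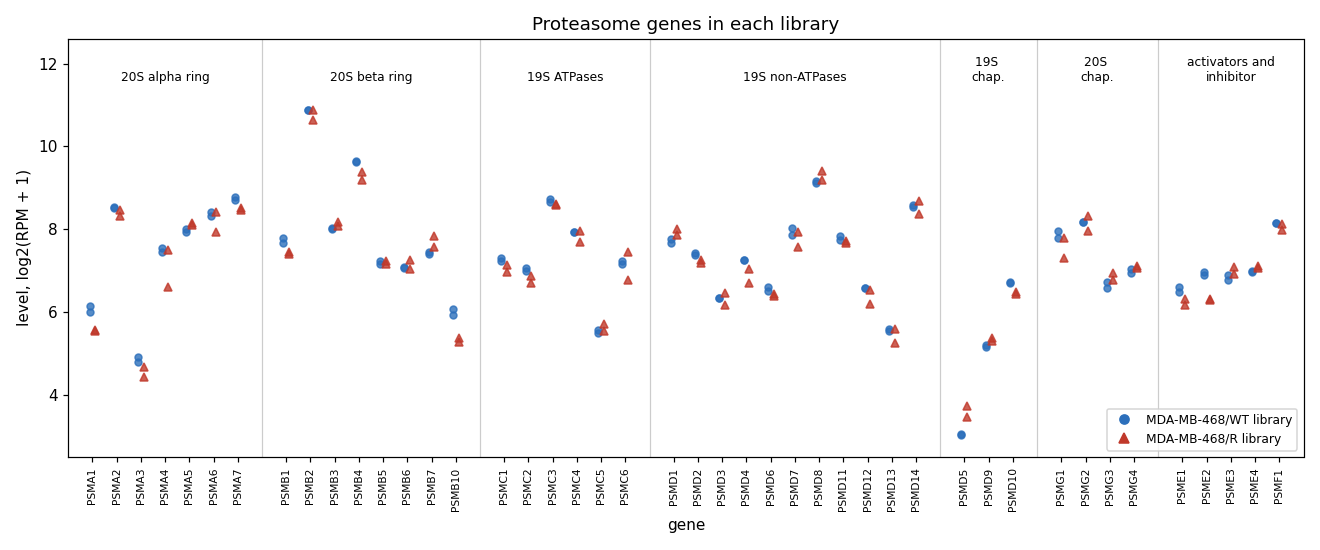
Level of each of the 44 tested proteasome genes on the y axis, as log2(RPM + 1), in the 2 parental libraries (blue circles) and the 2 resistant libraries (red triangles), with genes along the x axis by group. For PSMA1, PSMB10 and PSME2 both red points lie well below both blue points, while for most genes the points lie close together, and heights of different genes cannot be compared because each gene has its own amplicon.

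The direction of the small differences was uneven. The log2 fold change (mean log2(RPM + 1) of the resistant line minus that of the parental line) was negative for 31 of 44 members (70.5%) and for 53.4% of all genes tested, and its median was -0.12 in the members and -0.03 in all genes. Without R replicate 1 the median of the members was -0.07 (all genes -0.04), and 27 of 44 members were negative, against 54.2% of all genes tested. With each library centred on its median, the median of the members was also -0.07 (all genes 0.03). Both resistant libraries were below both parental libraries for 20 members, against 32.2% of all genes tested, and above both for 11, against 26.1%, and the groups overlapped for 13. The members differed less in size than other genes: the median absolute log2 fold change was 0.17 in the members and 0.24 in all genes, and 2 of 44 members (4.5%) but 17.2% of all genes differed by more than 1.5-fold. The median level was 144 RPM in the members and 26.4 RPM in all genes tested, so the members were read more deeply. Together the members took 0.932% and 0.988% of the reads of the resistant libraries and 1.03% and 1.04% of those of the parental libraries. In bulk RNA, fewer cells that express a gene and less RNA per cell cannot be told apart.

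**Figure D2:**
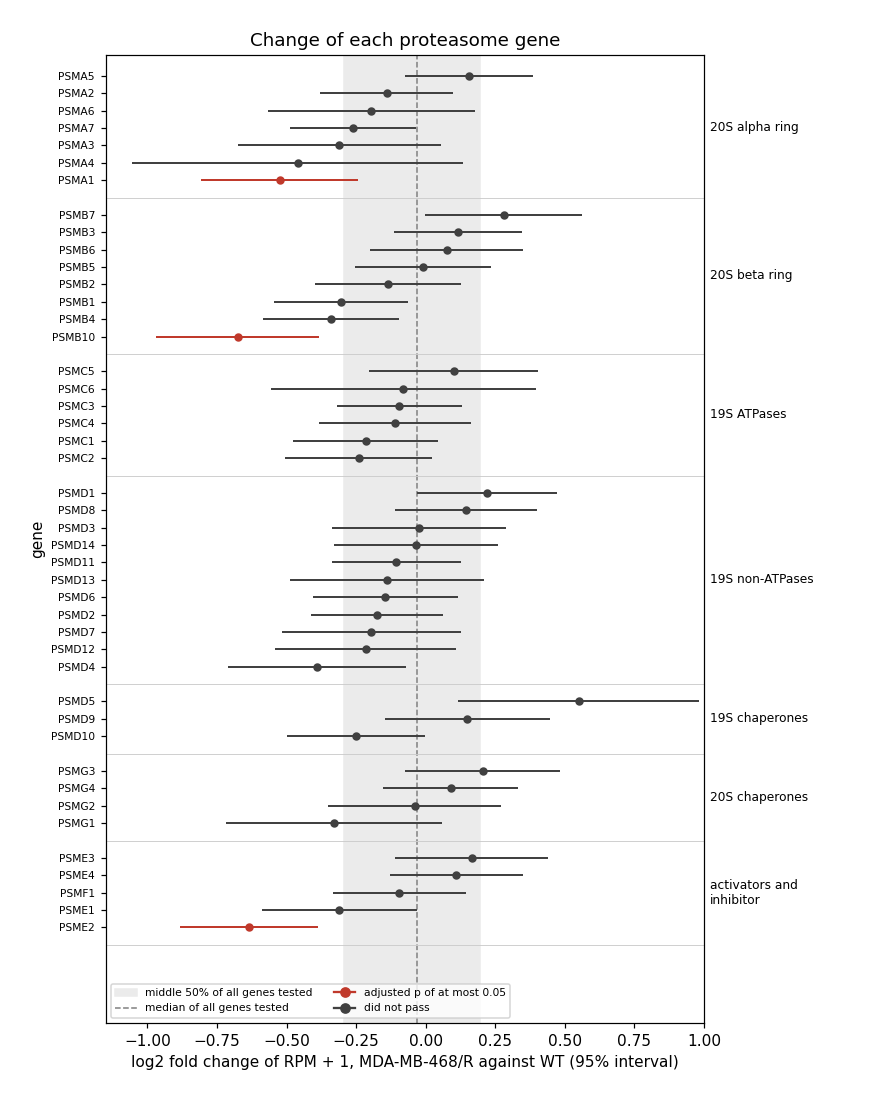
Log2 fold change of each tested proteasome gene (x axis, the resistant line against the parental line) with its 95% interval from limma, ordered within groups along the y axis. The 3 genes in red passed an adjusted p of 0.05, the dashed line is the median of all genes tested at -0.03 and the grey band their middle 50%, from -0.30 to 0.20.

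Among the alpha ring genes, whose products form the gates of the core, 7 of 8 were tested. Of these, 1 was lower and 0 were higher, against 10.6% and 5.36% of all genes tested. The median log2 fold change of the alpha ring was -0.26. PSMA1 was at 46.2 and 45.5 RPM in the resistant line and at 69.5 and 63.5 RPM in the parental line, so the groups did not overlap. The means were 45.9 ± 0.459 and 66.5 ± 4.30 RPM (SD, n = 2), a log2 fold change of -0.53 (SE 0.119, 95% interval -0.80 to -0.25, adjusted p = 0.0248 from limma). The call did not hold without a mean trend in limma's prior (adjusted p = 0.0555), without R replicate 1 (0.0540), R replicate 2 (0.0569), WT replicate 1 (0.408) or WT replicate 2 (0.295), while the log2 fold change in these fits stayed between -0.59 and -0.46. PSMA1 has 1 pseudogene of its name in RefSeq. In all, 21 of the 46 members have at least 1, with 13 for PSMC1. Reads of such copies cannot be told from those of the gene here.

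PSMA4, another alpha ring gene, had 96.0 RPM in R replicate 1 and 179 RPM in R replicate 2, beside 186 and 175 RPM in the parental line. The low value came from a single library, and the log2 fold change of -0.46 did not pass (adjusted p = 0.260 from limma). Without R replicate 2 it was -0.91 (adjusted p = 0.0284) and without R replicate 1 it was -0.02 (0.869). The other 5 tested alpha genes (PSMA2, PSMA3, PSMA5, PSMA6 and PSMA7) had log2 fold changes of -0.31 to 0.16, with a lowest adjusted p of 0.110. PSMA8, which encodes an alpha subunit of the testis, had 0 reads in all 4 libraries.

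Of the beta ring genes, 8 of 9 were tested, and 1 was lower and 0 were higher, against 10.6% and 5.36% of all genes tested. The median log2 fold change of the beta ring was -0.07. PSMB10, the immunoproteasome counterpart of PSMB7, was at 37.6 and 40.4 RPM in the resistant line and at 60.0 and 65.7 RPM in the parental line. Both resistant libraries lay below both parental ones, and the log2 fold change was the lowest of all members at -0.68 (SE 0.124, 95% interval -0.96 to -0.39, adjusted p = 0.0117 from limma). The means were 39.0 ± 1.96 and 62.8 ± 4.07 RPM (SD, n = 2). The call was lost without WT replicate 1 (adjusted p = 0.224) and without WT replicate 2 (0.300), where the log2 fold change was -0.74 and -0.61. Those fits called 11 and 9 of all 12118 genes higher and 52 and 48 lower, beside 649 and 1290 with all 4 libraries.

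The constitutive catalytic genes did not pass in either direction. PSMB5, which carries the chymotrypsin-like site, had 148 and 141 RPM in the resistant line and 141 and 150 RPM in the parental line, with an interval of its log2 fold change of -0.25 to 0.23. PSMB6, with the caspase-like site, had 152 and 130 RPM against 132 and 135 RPM, with an interval of -0.20 to 0.35. Both genes overlapped between the groups. PSMB7, with the trypsin-like site, had 228 and 189 RPM in the resistant line and 173 and 169 RPM in the parental line. It lay above the parental libraries in both resistant ones, by a log2 fold change of 0.28 (SE 0.119) that did not pass (adjusted p = 0.157 from limma). It passed without R replicate 2, at a log2 fold change of 0.42 (adjusted p = 0.0350).

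PSMB4, a beta ring gene without a proteolytic site, had 670 and 587 RPM in the resistant line and 797 and 791 RPM in the parental line. The groups did not overlap, but the log2 fold change of -0.34 (SE 0.103) did not pass (adjusted p = 0.0650 from limma). It passed when either resistant library was left out (adjusted p = 0.0241 with R replicate 1 left out and 0.0370 with R replicate 2 left out). The other tested beta genes, PSMB1, PSMB2 and PSMB3, had log2 fold changes of -0.31 to 0.12, with a lowest adjusted p of 0.0854. PSMB11, which encodes the catalytic subunit of the thymus, had 0 reads in all 4 libraries. Over the whole 20S group, 2 of 15 tested genes were lower and 0 higher, against 10.6% and 5.36% of all genes tested. At an unadjusted p of at most 0.05 the counts were 5 and 1, against 19.1% and 12.2%. The median of -0.20 became -0.05 without R replicate 1.

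Setting each interferon-inducible gene against its constitutive counterpart within the same library gives a comparison that does not depend on library scaling. The log2 ratio of PSMB10 to PSMB7 was -2.60 and -2.23 in the resistant line and -1.53 and -1.36 in the parental line, a ratio 1.96-fold lower in the resistant line. For PSMB9 to PSMB6, the pair at the caspase-like site, it was -1.47 and -1.53 against -0.13 and -0.16, a ratio 2.55-fold lower. For PSMB8 to PSMB5, the pair at the chymotrypsin-like site, it was -0.08 and 0.00 against 0.23 and 0.18, a ratio 1.19-fold lower. All 3 ratios were lower in both resistant libraries than in both parental ones, and they differed in size. PSMB10 and PSMB9 were themselves called lower on the same values, so their ratios are not separate results. The constitutive genes enter the ratios too, with log2 fold changes of 0.28 for PSMB7, 0.075 for PSMB6 and -0.01 for PSMB5, none of which passed. With 2 libraries against 2 an exact two-sided permutation test cannot go below p = 0.333, and each of these 3 comparisons gave that value. The level of 1 gene against another also depends on their amplicons, so only the change of a ratio between groups can be read.

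**Figure D3:**
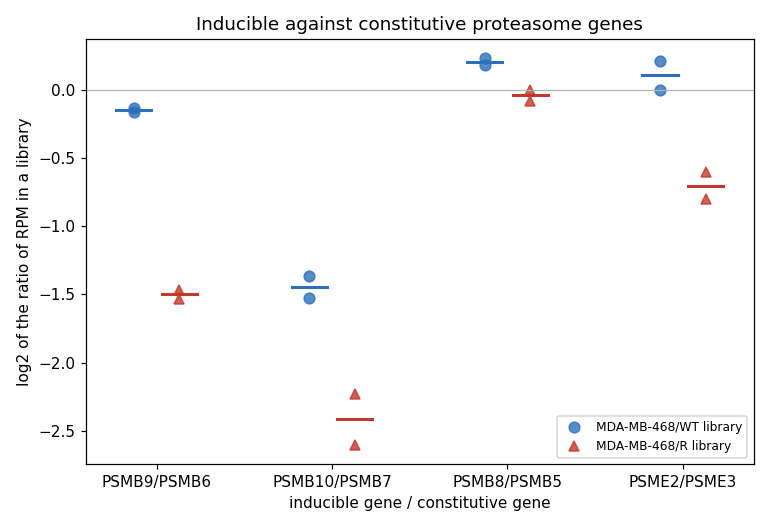
Log2 of the ratio of RPM of an inducible to a constitutive proteasome gene in each library (y axis) for 4 pairs (x axis), with parental libraries as blue circles, resistant libraries as red triangles and bars at the means of 2 libraries. In all 4 pairs the red points lie below the blue ones, by 1.35 for PSMB9/PSMB6 and by 0.25 for PSMB8/PSMB5.

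The 19S cap had no call. In limma 0 of 17 genes were higher and 0 lower, against 5.36% and 10.6% of all genes tested. In limma-voom there were also 0 and 0, against 5.41% and 11%. At an unadjusted p of at most 0.05 there was 1 lower gene, PSMD4, and 0 higher, against 19.1% and 12.2%. The median log2 fold change was -0.11 (all genes -0.03), and -0.06 with median centring (all genes 0.03). Of the 17 values 14 were negative (82.4%), against 53.4% of all genes tested. Of the 6 ATPase genes, which encode the unfolding ring, PSMC2 had 115 and 102 RPM in the resistant line and 132 and 125 RPM in the parental line (log2 fold change -0.24, adjusted p = 0.191 from limma). PSMC1 had 124 and 139 RPM against 148 and 157 RPM (-0.22, adjusted p = 0.230). Both lay below the parental libraries without passing, and PSMC3, PSMC4, PSMC5 and PSMC6 had log2 fold changes of -0.11 to 0.10.

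Of the 11 non-ATPase genes of the cap, PSMD4, a ubiquitin receptor, had the lowest log2 fold change. It was at 131 and 102 RPM in the resistant line and at 151 and 152 RPM in the parental line, and the log2 fold change of -0.39 (SE 0.135) did not pass (adjusted p = 0.0949 from limma). Without R replicate 1 it was -0.57 and passed (adjusted p = 0.0270). PSMD1, a scaffold of the cap, was at 230 and 257 RPM in the resistant line and at 201 and 216 RPM in the parental line, above the parental level in both libraries (log2 fold change 0.22, adjusted p = 0.207). The other 9 genes, among them PSMD14 for the deubiquitinase of the cap, had log2 fold changes of -0.22 to 0.15 and a lowest adjusted p of 0.281, and in 4 of them the groups overlapped.

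The assembly chaperones had no call either. In limma 0 of 7 genes were higher and 0 lower, against 5.36% and 10.6% of all genes tested. In limma-voom there were also 0 and 0, against 5.41% and 11%. At an unadjusted p of at most 0.05 there was 1 higher (PSMD5) and 1 lower (PSMD10), against 12.2% and 19.1%. The median log2 fold change of the assembly genes was 0.09. It was 0.05 without WT replicate 2, 0.14 without R replicate 1, 0.14 without WT replicate 1 and 0.15 with median centring. PSMD5, a chaperone of the 19S base, had the highest log2 fold change of all members. It was at 12.2 and 10.1 RPM in the resistant line and at 7.34 and 7.17 RPM in the parental line, the lowest levels measured among tested members. The log2 fold change was 0.55 (SE 0.184, 95% interval 0.12 to 0.98, adjusted p = 0.0868), so both resistant libraries were above both parental ones without passing the test. PSMD9, another base chaperone, had 38.4 and 40.1 RPM against 35.8 and 34.8 RPM (log2 fold change 0.15, adjusted p = 0.464 from limma). PSMD10, the base chaperone gankyrin, encoded on chromosome X, had 85.2 and 88.3 RPM in the resistant line and 102 and 104 RPM in the parental line (-0.25, adjusted p = 0.153). The log2 fold changes of the 3 base chaperones among the members thus had both signs. Assembly factors with other symbols fall outside the group by the rule used. Of these, PAAF1 (-0.255, adjusted p = 0.247 from limma) and POMP (-0.49, adjusted p = 0.0975) lay below the parental libraries in both resistant ones without passing. The median of the assembly group therefore covers only the factors named by the rule.

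The PSMG genes encode chaperones of the 20S alpha ring, which act as the pairs PSMG1 with PSMG2 and PSMG3 with PSMG4. PSMG1 had 157 and 220 RPM in the resistant line and 248 and 220 RPM in the parental line (log2 fold change -0.33, adjusted p = 0.221 from limma). PSMG2 had 246 and 316 RPM against 287 and 287 RPM (-0.04, adjusted p = 0.870). In both genes R replicate 1 was the lowest library. PSMG3 had 108 and 123 RPM against 95.3 and 104 RPM (0.21, adjusted p = 0.279), and PSMG4 had 136 and 133 RPM against 131 and 123 RPM (0.09, adjusted p = 0.602). These last 2 genes lay above the parental libraries in both resistant ones without passing the test.

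Of the 5 genes of activators and an inhibitor, 1 was lower (PSME2) and 0 were higher, against 10.6% and 5.36% of all genes tested. At an unadjusted p of at most 0.05 the counts were 2 and 0, against 19.1% and 12.2%. In limma-voom they were 1 and 0, against 11% and 5.41%. The median log2 fold change of the 5 genes was -0.10. PSME2 was at 77.3 and 78.3 RPM in the resistant line and at 124 and 118 RPM in the parental line. The groups did not overlap, with means of 77.8 ± 0.772 and 121 ± 4.20 RPM (SD, n = 2) and a log2 fold change of -0.64 (SE 0.105, 95% interval -0.88 to -0.39, adjusted p = 0.00808 from limma), the smallest adjusted p of the family. The call was lost without WT replicate 1 (adjusted p = 0.259) and without WT replicate 2 (0.221), while the log2 fold change was -0.60 and -0.67. PSME2 has 6 pseudogenes of its name in RefSeq, and their reads cannot be told from its own here. PSME1, its partner in the PA28 ring, which lies 1 coding gene away from it on chromosome 14, had 78.3 and 70.5 RPM against 96.7 and 88.3 RPM (log2 fold change -0.31, SE 0.118, adjusted p = 0.121).

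PSME3, for the nuclear activator PA28 gamma, had 134 and 119 RPM in the resistant line and 107 and 118 RPM in the parental line (log2 fold change 0.17, adjusted p = 0.379 from limma). PSME4, for the activator PA200, had 132 and 137 RPM against 126 and 124 RPM (0.11, adjusted p = 0.508). PSMF1, for the inhibitor PI31, had 279 and 252 RPM against 281 and 285 RPM (-0.10, adjusted p = 0.573). None of these 3 passed. The log2 ratio of PSME2 to PSME3 was -0.80 and -0.61 in the resistant line and 0.21 and 0.00 in the parental line. The ratio was 1.75-fold lower in the resistant line, again with the smallest possible exact permutation p of 0.333. PSME2 was itself called lower on the same values, so this ratio is not a separate result. The higher values of PSME3 (0.17), which did not pass, enter the ratio too.

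The replicates of the resistant line spread more than those of the parental line, in the members as in all genes. The SD over members of the difference between replicates was 0.27 for the resistant line and 0.09 for the parental line on the log2 scale, and over all genes tested it was 0.36 and 0.21. The gap was wider in the resistant line for 33 of 44 members and for 69.3% of all genes tested. The widest were in PSMA4 (-0.89, replicate 1 minus replicate 2), PSMC6 (-0.67), PSMG1 (-0.49) and PSMA6 (-0.48), in each of which R replicate 1 was low, and the widest gap in the parental line was 0.17. R replicate 1 was nevertheless below R replicate 2 in no more than 22 of the 44 members. PSMC6 and PSMA6 were named after their values were seen.

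**Figure D4:**
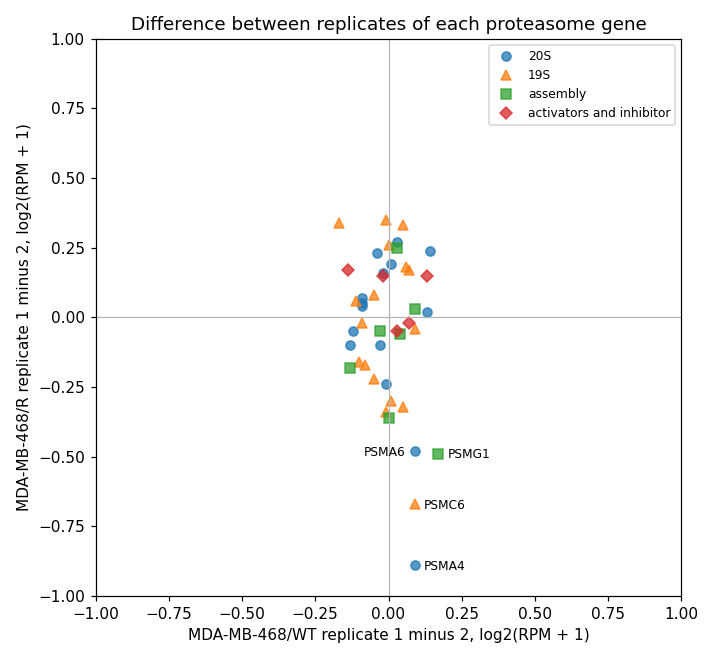
Difference between replicate 1 and replicate 2 in log2(RPM + 1) of each tested proteasome gene, in the parental line on the x axis and in the resistant line on the y axis, with 1 point per gene and marker shapes for the 4 groups. The points spread over 0.17 or less to either side along x and down to -0.89 along y, where PSMA4, PSMC6, PSMG1 and PSMA6 lie lowest.

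Genes that work with the proteasome were described from 3 further lists. Of 21 tested genes of proteasome-associated proteins, 5 were lower and 0 higher, against 10.6% and 5.36% of all genes tested. Their median log2 fold change was -0.26 (all genes -0.03). PSMB9, the immunoproteasome subunit left out of the family by the rule, was at 55.1 and 44.9 RPM in the resistant line and at 120 and 121 RPM in the parental line (log2 fold change -1.26, adjusted p = 0.00108 from limma). The shuttle factor genes UBQLN2 (-0.75, adjusted p = 0.00947) and UBQLN1 (-0.73, adjusted p = 0.00891), whose products carry ubiquitinated proteins to the cap, were also lower. The other 2 were UCHL5, a deubiquitinase of the cap, and ZFAND5, an activator of the proteasome. All 5 calls were lost without WT replicate 1 and without WT replicate 2 (adjusted p of 0.105 for PSMB9 without WT replicate 1, and up to 0.435 for ZFAND5), while their log2 fold changes stayed close, at -1.27 and -1.26 for PSMB9, -0.77 and -0.69 for UBQLN1 and -0.72 and -0.78 for UBQLN2. UCHL5 was also lost without R replicate 1 (0.0665), and both UCHL5 (0.0560) and ZFAND5 (0.0918) without a mean trend, and ZFAND5 with the replicate number as a block (0.0744) and with median centring (0.0518). PSMB8 had 140 and 141 RPM against 166 and 170 RPM and did not pass (-0.26, adjusted p = 0.125). POMP, the maturation factor of the 20S core, had 17.5 and 13.6 RPM against 22.1 and 22.1 RPM and did not pass (-0.49, adjusted p = 0.0975), but passed without R replicate 1 (0.0444).

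Of 12 tested regulators of proteasome genes, with a median log2 fold change of -0.04, 2 were lower and 0 higher, against 10.6% and 5.36% of all genes tested. These were MAFK (-0.71, adjusted p = 0.0496 from limma), a small MAF partner of the NRF factors, and NFE2L3 (-0.57, adjusted p = 0.0180), a relative of the factor that restores proteasome genes when the enzyme is inhibited. MAFK was just inside the threshold and lost its call in 8 of 13 alternatives (adjusted p of up to 0.505, without WT replicate 1), and NFE2L3 lost it without WT replicate 1 (0.319) and without WT replicate 2 (0.325), with log2 fold changes of -0.58 and -0.57. That factor, NFE2L1, had 71.5 and 62.6 RPM in the resistant line and 71.0 and 73.5 RPM in the parental line and did not pass (-0.11, adjusted p = 0.586). DDI2, the protease that activates it, and MAFF had too few reads to be tested. NFE2L2, another NRF factor, had 180 and 192 RPM in the resistant line and 150 and 149 RPM in the parental line. Its log2 fold change of 0.31 did not pass (adjusted p = 0.0780 from limma). Of the 12 regulators tested, 6 had a positive and 6 a negative log2 fold change. Of 8 tested genes of ubiquitin supply and extraction, with a median of -0.12, 1 was lower and 0 higher, against 10.6% and 5.36% of all genes tested. It was UBA1, the main ubiquitin-activating enzyme (-0.36, adjusted p = 0.0410), which lost its call in 6 of 13 alternatives, among them median-ratio scaling (0.0609), the replicate block (0.0990), WT replicate 1 left out (0.433) and WT replicate 2 left out (0.470), while the ubiquitin gene UBB had 1242 and 1295 RPM against 1225 and 1260 RPM (0.03, adjusted p = 0.860).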

How the data were processed

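Total RNA from 4 libraries, 2 of the resistant and 2 of the parental line, was amplified with 1 amplicon for each gene. Alignment was with the Torrent Mapping Alignment Program according to the study's methods, while Bowtie2, bedtools and edgeR, with no version, stand in the submitters' processing notes. A genome build is not given in the sources used here. The authors deposited log2(RPM + 1) values rounded to 2 decimals. Reads were recovered from the spacing of low values, of which 97.8% to 100.0% were whole numbers of reads within 0.1, giving 6990500, 7332500, 6832500 and 7982000 reads for R replicates 1 and 2 and WT replicates 1 and 2. Limits from 3 reads cover counting error only, and because reads carry no molecular identifiers they are not independent molecules.

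Genes with at least 10 reads in at least 2 libraries (12118) were tested on the deposited log2 values with limma 3.58.1 in R 4.3.3 (group as the one term, moderated variances with a mean trend, 2 residual and 5.4 prior degrees of freedom) and Benjamini-Hochberg adjustment over all genes tested. Fold changes on this scale understate those of low genes. On simulated data of 12118 genes for this comparison, limma called 32% of 100 genes changed 1.5-fold, 96% of 100 genes changed 3-fold and 0.02% of 11918 unchanged genes. Alternatives were the pseudocount (0.25 or 4 RPM), the filter (none, or a mean of 50 reads in each group), median-ratio scaling, median centring, limma-voom on recovered reads, no mean trend, the replicate number as a block, and each library left out.

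Members and lists were chosen with earlier results of these data known, so lists are described by counts and medians and not tested. Per-library values were given for called members, the catalytic subunits, the assembly, activator and inhibitor genes, and the 2 members of each list with the largest absolute log2 fold change. In the other lists the 3 called genes with the largest absolute change were named, and PSMB8, PSMB9 and POMP always. UCHL5, ZFAND5, PAAF1, NFE2L1, NFE2L2, DDI2, MAFF and UBB were added after their values were seen. Promoters come from a RefSeq table of GRCh38.p14, in which 40 of 46 members were found.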

Additional observations from a re-analysis of the deposited data

How the results depend on the processing

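Without a mean trend in limma, calls over all genes fell to 491 higher and 1113 lower, from 649 and 1290. The count of lower members was then 2, and it was 3 with the trend and under every other alternative that kept all 4 libraries. With 1 library left out it ranged from 0 to 7, and the count of higher members, 0 with all libraries, ranged from 0 to 1. The 0 arose without WT replicate 1 and without WT replicate 2, where the calls over all genes also dropped to 11 higher and 52 lower and to 9 and 48. Without R replicate 1 there were 6 lower members and 1 higher (PSMD8), and without R replicate 2 there were 7 lower and 1 higher (PSMB7), beside 1305 lower and 703 higher and 1199 and 751 of all genes. The lone library of a group is assumed there to vary like the other group, and the parental libraries lay closer together than the resistant ones. The median log2 fold change of the members, -0.12, was -0.0855 with median-ratio scaling (all genes 0.00) and -0.0675 with median centring (all genes 0.03), and it ranged from -0.13 to -0.065 with 1 library left out. That of the 20S members, -0.20, ranged from -0.235 to -0.045, that of the 19S members from -0.125 to -0.085 (-0.055 with median centring) and that of the assembly members from 0.045 to 0.14 (0.145). The members and pathway genes called with all 4 libraries kept their direction under all alternatives run. PSMA6 and PSMC4, which passed with 1 resistant library left out, had the other sign with the other left out. In simulated data over all genes tested, with few changed and the same spread in both groups, limma called 32% of changes of 1.5-fold. The members were read more deeply than most genes, and that share was not measured for them. Members that did not pass are still not shown to be unchanged.

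The groups share replicate numbers, but the differences between replicate 1 and 2 of the 2 groups had a Pearson r of 0.009 across genes, which are not independent, so the numbers were not taken to pair the samples. With the replicate number as a block, 3 members were lower and 0 higher, and 497 and 1114 of all genes were higher and lower, beside 649 and 1290 without it. It ended the calls of ZFAND5 (adjusted p = 0.0744 from limma) and UBA1 (0.0990) and of none of the other members and pathway genes called.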
